A study of Sus scrofa with 8 samples.

Results

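The genes described here encode the proteasome, the protease that degrades proteins marked with ubiquitin. They were chosen by name, as the rows of the expression table whose symbol starts with PSMA to PSMG and a digit, and PSMB8, PSMB9, PSMB10, PSME1 and PSME2, which serve the interferon-induced form of the enzyme, were left out. This gave 34 of the 18975 genes listed, with 33 symbols. They fall into 11 genes of the core particle, 15 genes of the regulatory particle and 8 further rows, and 31 of the 34 reached the level at which genes were tested. The hearts came from male pigs slaughtered at 6 months of age. The groups were TH and TL for the Tibetan breed and YH and YL for the Yorkshire breed, H standing for rearing at highland (Linzhi, Tibet) and L for rearing at lowland (Beijing), with 2 RNA-seq libraries per group and no treatment other than the place of rearing. Each library held the RNA of 4 pigs in equal amounts, and the spread within a group is therefore one between pools, which says little about single animals. In the lists of values below, the pool numbered 1 comes before the pool numbered 2. The design asks how heart expression differs between the breeds at one altitude and between the altitudes in one breed.

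The proteasome is a barrel with a cap at one or both ends. The barrel, or core particle, is made of rings of alpha subunits (PSMA genes), which form the gate, around rings of beta subunits (PSMB genes), of which PSMB5, PSMB6 and PSMB7 carry the active sites. The cap, or regulatory particle, holds a ring of ATPases (PSMC genes) that unfold the substrate and thread it into the barrel, and non-ATPase subunits (PSMD genes) that bind ubiquitin, scaffold the cap or remove the ubiquitin chain. In heart muscle it turns over contractile and regulatory proteins and clears damaged ones. In cells short of proteasome activity, the transcription factor NFE2L1 is known to raise the subunit genes together.

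The values are FPKM, fragments on a gene scaled by its length and by the mapped fragments of the library, so that levels can be set side by side between genes. Differences are given as log2 fold changes of FPKM + 1 from a limma fit of all 8 libraries over 11913 genes, those at 1 FPKM or more in 2 libraries or more. A gene was called at a Benjamini-Hochberg adjusted p under 0.01 with a log2 fold change over 1 in size, and this is the threshold meant by passing below. A member missing that threshold is not thereby shown to be equal between groups. Each library had between 15687000 and 26722000 reads on genes. In bulk tissue, fewer cells of a type and less RNA per cell cannot be told apart.

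Some libraries stand apart and touch most of what follows. In YL2, 12 kidney genes summed to 4931 FPKM, with 0 of them at 0, against 0.427 to 17.2 FPKM in the other 7 libraries, where 1 to 8 were at 0. Genes of cardiomyocytes (9 of 11 asked for were found, without MYH7 and MYL2) summed to 16605 FPKM in YL2 and to 26191 to 44267 FPKM in the others, so the heart label held in all 8 by these markers. The sum was highest in TH1 through TNNI3 alone, at 16846 FPKM, while the other 8 markers were highest in other libraries. Red blood cell genes summed to 3089 FPKM in TH1 and to 523 to 1625 elsewhere. Leukocyte genes (10 of 10) summed to 49.9 FPKM in YH1 and 64.2 in YH2 and to 23.2 to 32.2 in the other 6, and interferon response genes ranged from 34.0 FPKM in TH1 to 291 in YL1. The 13 mitochondrially encoded protein genes took 20.8% of the reads on genes in YL2, 36.6% in TH1, 28.1% in TH2 and 38.0% in YL1. The descriptions of YL1 and YL2 name the processed file of another group (TL), and they were used as YL because title, breed and column name all say so. The part of these features in the results below was not tested, other than by giving values without TH1 and without YL2.

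All 26 subunit genes of the core and regulatory particle were expressed in every library. Over the 8 libraries the core genes had a median of their mean levels of 89.7 FPKM and the regulatory genes one of 39.2 FPKM, against 5.86 FPKM for all genes tested. The lowest core gene, PSMA4 (alpha), averaged 19.2 FPKM, and the lowest regulatory gene, PSMC2 (ATPase), averaged 5.18 FPKM. The range of a gene over the libraries, taken as its highest FPKM + 1 over its lowest, had a median of 1.83 in the core particle, 1.68 in the regulatory particle and 2.101 over all genes tested. Without TH1 and YL2 these medians were 1.24, 1.29 and 1.57.

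Of the beta subunits with an active site, PSMB6 (caspase-like activity) and PSMB7 (trypsin-like activity) were measured, and PSMB5 was not analysed here because no row could be matched to it by symbol or gene ID. PSMB6 (chromosome 12, 54317036 to 54319097 on Sscrofa10.2, the build of all positions here) had 209 and 139 FPKM in the TH pools, 146 and 151 in the TL pools, 116 and 148 in the YH pools and 129 and 105 in the YL pools. PSMB7 (chromosome 1, 298943392 to 299006601) had 204 and 116 FPKM in the TH pools, 121 and 121 in the TL pools, 113 and 117 in the YH pools and 132 and 104 in the YL pools. In both genes TH1 was the highest library and YL2 the lowest, and TH2 lay within the range of the other groups.

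PSMB1, PSMB3 and PSMB4 are beta subunits without an active site and stood, with PSMB6, at the top of the core particle. PSMB4 (chromosome 4, 107036321 to 107038687), with a mean of 145 FPKM the highest member of all, had 237 and 135 FPKM in the TH pools, 136 and 127 in the TL pools, 130 and 145 in the YH pools and 134 and 116 in the YL pools. PSMB1 had 194 and 124 FPKM in the TH pools, 129 and 115 in the TL pools, 131 and 140 in the YH pools and 131 and 106 in the YL pools. PSMB3 had 282 and 143 FPKM in the TH pools, 127 and 114 in the TL pools, 107 and 127 in the YH pools and 116 and 83.5 in the YL pools. TH1 was again highest and YL2 lowest in each of the 3, and TH2 was above the 6 libraries of the other groups only in PSMB3. The order of their means (PSMB4 145, PSMB6 143, PSMB3 137, PSMB1 134 and PSMB7 129 FPKM) lies within the spread of each gene over the libraries. PSMB3 rests on 340 to 891 reads per library, the fewest of the core genes, and its gene model sits on an unplaced scaffold (GL896426.1, 497 to 4015).

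The 6 alpha subunits in the table, PSMA2 to PSMA7, were lower. PSMA6 had the highest mean of them, 89.7 FPKM, followed by PSMA7 with 75.05 and PSMA2 with 57.7. PSMA2 (chromosome 18, 56857685 to 56868920) had 76.6 and 66.0 FPKM in the TH pools, 52.1 and 49.0 in the TL pools, 55.9 and 60.1 in the YH pools and 54.6 and 47.6 in the YL pools, so both TH libraries lay above all others. PSMA5 had 58.8 and 53.1 FPKM in the TH pools, 46.8 and 40.6 in the TL pools, 40.2 and 46.0 in the YH pools and 37.1 and 32.3 in the YL pools, with both YL libraries below all others. PSMA7 had 98.7 and 67.2 FPKM in the TH pools, 83.8 and 81.9 in the TL pools, 67.2 and 68.5 in the YH pools and 66.0 and 67.04 in the YL pools. In PSMA7 both TL libraries were above the YL libraries, while TH2 was at the level of the Yorkshire libraries. PSMA4 had 24.4 and 18.7 FPKM in the TH pools, 19.98 and 16.3 in the TL pools, 18.5 and 18.2 in the YH pools and 17.7 and 20.2 in the YL pools, with TH1 the highest and TH2 close to the Yorkshire pools. PSMA3 ranged from 28.5 FPKM in YL2 to 43.4 in TH1.

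In the regulatory particle, the ATPases PSMC1, PSMC3, PSMC5 and PSMC6 averaged 37.4 to 60.1 FPKM. PSMC5 had 86.1 and 51.8 FPKM in the TH pools, 62.8 and 57.3 in the TL pools, 50.9 and 58.9 in the YH pools and 57.9 and 55.4 in the YL pools. PSMC6 had 65.8 and 53.5 FPKM in the TH pools, 57.9 and 53.4 in the TL pools, 54.4 and 48.8 in the YH pools and 54.1 and 41.5 in the YL pools. In both, TH1 was above the other 7 libraries and TH2 was not. The fifth ATPase of the table, PSMC2 (chromosome 9, 113971132 to 113984848), stood far below them, with 3.44 and 4.47 FPKM in the TH pools, 5.37 and 4.91 in the TL pools, 6.13 and 7.997 in the YH pools and 4.56 and 4.58 in the YL pools, from 178 to 401 reads. For PSMC2 the TH libraries were the lowest and the YH libraries the highest, and the groups TH, TL and YH did not overlap.

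The non-ATPase subunits spanned 11.5 to 66.0 FPKM in their means. PSMD4 (chromosome 4, 107246978 to 107257425), a ubiquitin receptor whose gene starts about 208 kb beyond PSMB4, had 90.5 and 73.5 FPKM in the TH pools, 59.1 and 60.1 in the TL pools, 56.6 and 71.6 in the YH pools and 63.3 and 53.2 in the YL pools. PSMD13, a subunit of the lid of the cap, had 65.6 and 49.4 FPKM in the TH pools, 57.5 and 54.2 in the TL pools, 56.6 and 61.6 in the YH pools and 53.8 and 47.6 in the YL pools. PSMD4 was highest in both TH pools, and for PSMD13 the YL pools lay below those of TL and YH while TH1 and TH2 spanned all others but YL2.

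PSMD8 and PSMD14 are further lid subunits, PSMD14 being the enzyme that cuts the ubiquitin chain off the substrate. PSMD8 (chromosome 6, 42790023 to 42797529) had 73.5 and 52.3 FPKM in the TH pools, 38.3 and 38.5 in the TL pools, 34.0 and 41.9 in the YH pools and 42.5 and 37.4 in the YL pools. PSMD14 (chromosome 15, 75640606 to 75707668) had 43.8 and 33.7 FPKM in the TH pools, 25.2 and 24.3 in the TL pools, 25.4 and 23.6 in the YH pools and 27.6 and 18.8 in the YL pools. In both genes TH1 and TH2 lay above the 6 other libraries. PSMD6, another lid subunit, had 30.5 and 32.8 FPKM in the TH pools, 23.2 and 23.5 in the TL pools, 29.9 and 29.5 in the YH pools and 25.7 and 30.0 in the YL pools, and the TL libraries were its lowest.

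PSMD1 and PSMD2 are the large scaffolds at the base of the cap, and PSMD11 is a lid subunit. PSMD1 (chromosome 15, 145524630 to 145555101) had 6.27 and 12.2 FPKM in the TH pools, 13.1 and 12.1 in the TL pools, 14.9 and 16.1 in the YH pools and 8.56 and 9.06 in the YL pools. PSMD2, which was noted here after its values were seen, had 28.4 and 41.0 FPKM in the TH pools, 39.4 and 37.7 in the TL pools, 40.4 and 47.8 in the YH pools and 34.1 and 44.4 in the YL pools. PSMD11 (chromosome 12, 44259355 to 44287880) had 26.7 and 27.8 FPKM in the TH pools, 32.7 and 30.3 in the TL pools, 36.1 and 41.2 in the YH pools and 28.7 and 26.3 in the YL pools. These 3 genes and PSMC2 were the only subunit genes with their highest value in YH2, and PSMC2, PSMD1 and PSMD2 had their lowest value in TH1, where most other subunit genes had their highest. PSMD7 (29.7 to 63.3 FPKM) and PSMD12 (13.3 to 19.3 FPKM) were highest in TH1 and lowest in YL2.

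**Figure D1:**
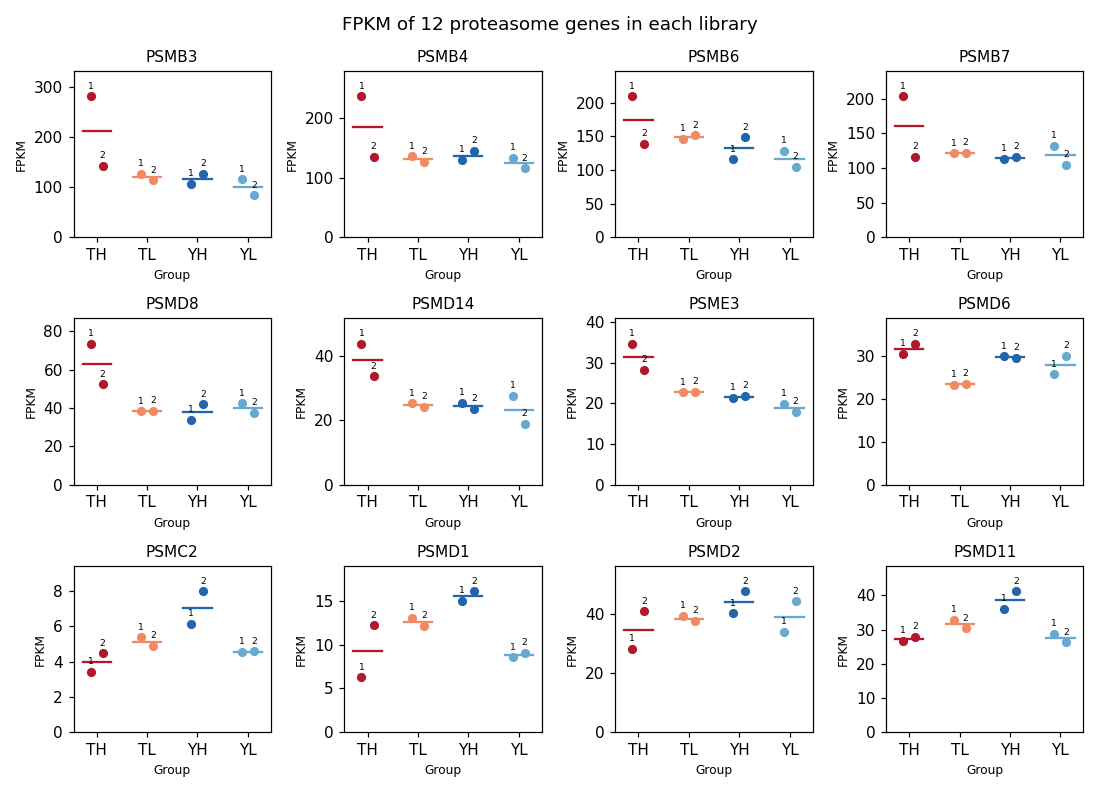
FPKM of 12 proteasome genes (vertical axes, each from 0) in the groups TH, TL, YH and YL; each point is 1 library with its replicate number and each line the mean of the 2 libraries. PSMB3, PSMB4, PSMB6 and PSMB7 are highest in TH1 (PSMB3 at 282 FPKM, TH2 at 143), PSMD8 and PSMD14 are high in both TH libraries, and PSMC2, PSMD1 and PSMD11 are highest in the 2 YH libraries.

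Outside the 2 particles, PSME3 and PSME4 encode alternative caps that open the barrel without ATP. PSME3 (chromosome 12, 20244727 to 20250334) had 34.6 and 28.2 FPKM in the TH pools, 22.7 and 22.8 in the TL pools, 21.3 and 21.9 in the YH pools and 19.9 and 17.9 in the YL pools, so the 4 groups did not overlap and followed the order TH, TL, YH, YL, with TL and YH close to each other. PSME4 had 18.9 and 19.1 FPKM in the TH pools, 13.2 and 14.1 in the TL pools, 18.4 and 18.2 in the YH pools and 22.8 and 8.66 in the YL pools, and YL1 and YL2 were its highest and lowest libraries.

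The chaperones that assemble the core particle are PSMG1 to PSMG4, of which PSMG2 was not analysed here. PSMG1 had 39.8 and 29.0 FPKM in the TH pools, 25.1 and 21.9 in the TL pools, 22.1 and 29.4 in the YH pools and 29.7 and 20.8 in the YL pools. PSMG3 had 21.4 and 14.6 FPKM in the TH pools, 19.9 and 20.2 in the TL pools, 16.5 and 14.6 in the YH pools and 20.3 and 16.0 in the YL pools. PSMG4 had 78.9 and 43.5 FPKM in the TH pools, 77.3 and 43.1 in the TL pools, 57.6 and 52.5 in the YH pools and 55.2 and 40.2 in the YL pools. The libraries of TH differed by more than the groups did for PSMG3 and PSMG4. PSMG3 rests on 54 to 113 reads and PSMG4 on 179 to 378.

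The other 3 rows did not reach the level tested. PSMD10, an assembly chaperone of the cap, has 2 rows, one on chromosome X with at most 1 read in any library and one on scaffold GL895271.1 with at most 5 reads. PSMC3IP matches by name only, since it encodes a recombination protein of meiosis and no proteasome subunit. It had 0.329 and 0.610 FPKM in the TH pools, 0.674 and 0.486 in the TL pools, 0.284 and 0.0816 in the YL pools and 0.0453 in YH2, and is listed at 0 in YH1, from at most 12 reads. A table of gene names identified 3 rows without a symbol as PSMA1, PSMD3 and PSMD5, which the name rule does not take in. PSMA1 ranged from 46.8 to 67.1 FPKM, PSMD3 from 24.7 to 49.7 with its highest value in TH1, and PSMD5 from 1.36 in TH1 to 5.74 in YH2. PSMA8, PSMB2, PSMB5, PSMB11, PSMC4, PSMD9, PSMF1 and PSMG2 were not analysed here.

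Across the libraries, TH1 was the highest for 21 of the 26 subunit genes, with all 11 core genes and 10 of the 15 regulatory genes, while 24.96% of all genes tested were highest there. YL2 was the lowest for 18 of the 26, with 9 core and 9 regulatory genes, while 22.5% of all genes tested were lowest there. In the other direction, TH1 was the lowest for 3 of the 26 and YL2 the highest for 0. Of all genes tested, 26.7% were lowest in TH1 and 24.7% highest in YL2. The median deviation of the core genes from their own mean over the libraries, on the log2 scale, was 0.42 in TH1 and -0.32 in YL2 and between -0.12 and 0.03 in the other 6 libraries. For the regulatory genes it was 0.30 in TH1 and -0.23 in YL2 and between -0.10 and 0.11 in the others. The same median over all genes tested lay between -0.06 and 0.04 in the 8 libraries. YL2 is the library with the kidney genes and the lowest sum of cardiomyocyte genes, and TH1 the one with the highest sum of red blood cell genes. What these differences add to the subunit values was not tested.

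**Figure D2:**
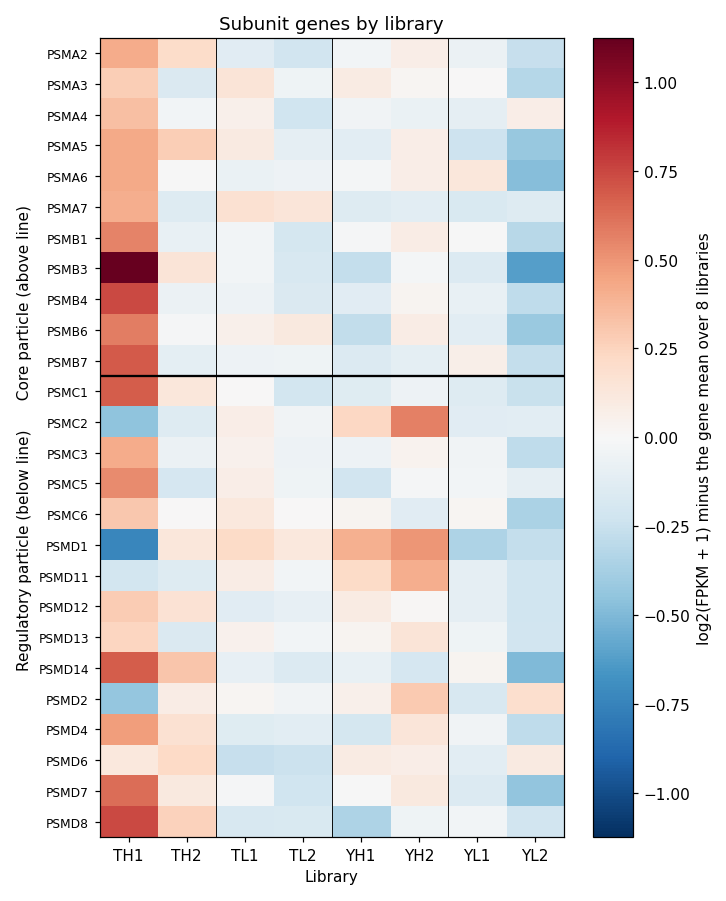
Deviation of each of the 26 subunit genes (rows, core particle above the black line and regulatory particle below) from its own mean over the 8 libraries (columns, grouped as TH, TL, YH and YL), on the scale of log2(FPKM + 1), red for above and blue for below. The column of TH1 is red for all 11 core genes and blue for PSMC2, PSMD1, PSMD2 and PSMD11, and the column of YL2 is mostly blue.

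The core genes moved further in TH1 than the regulatory genes. Summed over the genes, the core particle had 1547 FPKM in TH1, 773 in YL2 and between 903 and 999 in the other 6 libraries, and the regulatory particle had 723 FPKM in TH1, 478 in YL2 and between 519 and 589 in the others. The balance of the particles, the mean log2(FPKM + 1) of the core genes minus that of the regulatory genes, was 1.57 in TH1 and between 1.13 and 1.27 in the other 7 libraries. TH2, the other pool of the same group, had 1.19. At the extremes, the log2 ratio of PSMB3 to PSMD1 was 5.49 in TH1, 3.55 in TH2 and 2.83 to 3.76 in the other 6. These values describe single pools, and no test of TH1 against the rest was made because the labels set it apart in nothing but its number. The FPKM of all genes summed to 8559104 in TH1 and to between 1563940 (YL2) and 4017846 (YL1) elsewhere. TH1 also had the fewest genes at 1 FPKM or more, 10233. A relative transcript length was estimated from reads per FPKM. Its median was 0.48 for the core genes, 1.01 for the regulatory genes and 0.98 for all genes tested, and PSMB3 was at 0.083. What the FPKM sum and transcript length add to the balance was not tested.

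**Figure D3:**
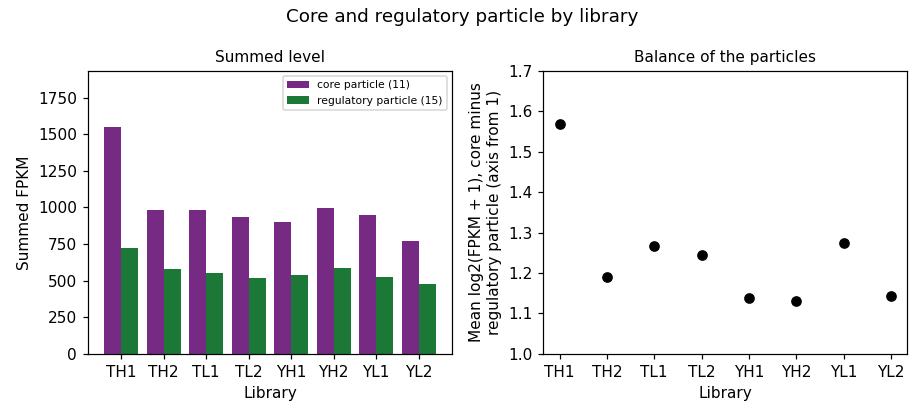
Left, summed FPKM (vertical axis from 0) of the 11 core genes and the 15 regulatory genes in each library. Right, the mean log2(FPKM + 1) of the core genes minus that of the regulatory genes in each library, on an axis that starts at 1. TH1 has the highest sums (1547 and 723 FPKM) and a balance of 1.57, and the other 7 libraries lie between 1.13 and 1.27.

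The comparison of TH to YH sets the breeds side by side at highland. The smallest p-values on the higher side were those of the lid genes PSMD8 and PSMD14 and of the cap gene PSME3, and on the lower side those of PSMC2, PSMD1 and PSMD11. PSMD8 averaged 62.9 ± 15.02 FPKM in TH and 38.0 ± 5.64 in YH (SD, n = 2 each), a log2 fold change of 0.70 (SE 0.24, limma adjusted p = 0.246). PSMD14 averaged 38.8 ± 7.14 FPKM and 24.5 ± 1.27 (log2 fold change 0.63, SE 0.25, limma adjusted p = 0.294). PSME3 averaged 31.4 ± 4.55 FPKM and 21.6 ± 0.367 (0.51, SE 0.20, limma adjusted p = 0.283). PSMC2 averaged 3.96 ± 0.725 FPKM in TH and 7.06 ± 1.32 in YH (-0.70, SE 0.22, limma adjusted p = 0.215), PSMD1 9.24 ± 4.19 and 15.5 ± 0.801 (-0.75, SE 0.30, adjusted p = 0.288), and PSMD11 27.2 ± 0.806 and 38.7 ± 3.60 (-0.49, SE 0.19, adjusted p = 0.292). In each of these 6 genes the libraries of TH and YH did not overlap. The largest fold change was that of PSMB3, 0.78 (SE 0.36, limma adjusted p = 0.349), with its TH pools far apart.

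None of the 31 members tested passed in TH to YH (0 called by limma, against 0.0336% of all genes tested), and at an unadjusted p under 0.05 there were 3 higher and 3 lower, the 6 just described, where 7.71% of all genes tested were higher and 8.47% lower. Of the 26 subunit genes, 10 were higher and 3 lower in TH without overlap between the libraries, where 25.2% of all genes tested were higher and 27.3% lower without overlap. The median log2 fold change was 0.29 for the core genes, 0.19 for the regulatory genes and -0.03 for all genes tested. 10 of 11 core genes and 10 of 15 regulatory genes were above 0, against 47.5% of all genes. Without TH1 the median fell to 0.02 for the core genes, with 6 of 11 above 0, and to 0.05 for the regulatory genes, with 8 of 15 above 0, and no member had an unadjusted p under 0.05. Without TH2 the medians were 0.52 for the core genes and 0.35 for the regulatory genes. The number of members at that p also changed when TH2, TL1, TL2, YH1 or YH2 was left out. Without TH1, PSMD8 was at 0.46, PSMD14 at 0.44, PSMB3 at 0.29, PSMD1 at -0.32 and PSMC2 at -0.55. With every library set to the same FPKM sum, 0 of 11 core and 0 of 15 regulatory genes were above 0, with medians of -0.64 and -0.72 where that of all genes tested was -0.50. With median-ratio scaling the medians were 0.16 and 0.065 where that of all genes tested was -0.13. They then lay 0.29 and 0.19 above it, against 0.32 and 0.22 without this scaling. With only genes averaging 10 FPKM or more tested, they lay 0.21 and 0.11 above the median of all such genes, 0.08.

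Across altitudes in the Tibetan breed, TH to TL, the same lid genes stood out on the higher side. PSMD8 averaged 62.9 ± 15.02 FPKM in TH and 38.4 ± 0.136 in TL (log2 fold change 0.68, SE 0.24, limma adjusted p = 0.363), PSMD14 38.8 ± 7.14 and 24.8 ± 0.700 (0.62, SE 0.25, adjusted p = 0.427) and PSMA2 71.3 ± 7.50 and 50.5 ± 2.20 (0.48, SE 0.21, adjusted p = 0.443). On the lower side were PSMD1 (-0.47, SE 0.30, limma adjusted p = 0.595), PSMC2 (-0.32, SE 0.22, adjusted p = 0.632) and PSMD11 (-0.20, SE 0.19, adjusted p = 0.742). The libraries did not overlap for these genes other than PSMD1, where TH2 lay between TL1 and TL2. Since TH enters both comparisons, the values of TH to YH and of TH to TL are not independent.

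In TH to TL, 0 of 31 members passed by limma (0.0504% of all genes tested did), and 2, PSMD8 and PSMD14, had an unadjusted p under 0.05, both higher, where 5.81% of all genes tested were higher and 5.53% lower. Of the 26 subunit genes, 11 were higher and 2 lower in TH without overlap, where 24% of all genes tested were higher and 24.5% lower without overlap. The median was 0.34 for the core genes, 0.18 for the regulatory genes and -0.02 for all genes tested, with 10 of 11 and 11 of 15 above 0, against 48% of all genes. Without TH1 the medians were 0.04 and 0.09, with 7 of 11 and 8 of 15 above 0, and PSMD1 was at -0.04, PSMC2 at -0.17 and PSMD8 at 0.43. At an unadjusted p under 0.05 there were 0 members without TH1, TL1 or TL2, 10 higher and 1 lower without TH2, 1 higher without YH1 or YH2 and 5 higher without YL1 or YL2. With equal FPKM sums 1 of 11 core and 2 of 15 regulatory genes were above 0, with medians of -0.28 and -0.40 where that of all genes tested was -0.27.

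At lowland, TL to YL sets the breeds side by side. PSMD1 averaged 12.6 ± 0.673 FPKM in TL and 8.81 ± 0.360 in YL (log2 fold change 0.47, SE 0.30, limma adjusted p = 0.698), PSMA5 43.7 ± 4.34 and 34.7 ± 3.43 (0.32, SE 0.21, adjusted p = 0.706) and PSMA7 82.9 ± 1.38 and 66.5 ± 0.717 (0.31, SE 0.24, adjusted p = 0.750). On the lower side PSMD6 averaged 23.4 ± 0.205 FPKM in TL and 27.8 ± 3.02 in YL (-0.24, SE 0.19, limma adjusted p = 0.759), and PSMG1 (-0.08, adjusted p = 0.959) and PSMA4 (-0.06, adjusted p = 0.959) overlapped. None of the 31 members passed by limma (0 called, against 0.00839% of all genes tested), and none had an unadjusted p under 0.05, where 5.9% of all genes tested were higher and 3.04% lower. Without overlap, 7 of the 26 subunit genes were higher and 1 lower in TL, where 23.8% of all genes tested were higher and 17.8% lower. The median was 0.11 for the core genes and 0.11 for the regulatory genes, against 0.02 for all genes, and 9 of 11 and 12 of 15 were above 0, against 51.6%. Without YL2 it was 0.02 and 0.04, with PSMD6 at -0.13, and without YL1 it was 0.30 and 0.16. With equal FPKM sums 1 of 11 core and 1 of 15 regulatory genes were above 0, with medians of -0.21 and -0.20 where that of all genes tested was -0.23.

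Across altitudes in the Yorkshire breed, YH to YL, the genes highest in YH2 led. PSMD1 averaged 15.5 ± 0.801 FPKM in YH and 8.81 ± 0.360 in YL (log2 fold change 0.75, SE 0.30, limma adjusted p = 0.784), PSMD11 38.7 ± 3.60 and 27.5 ± 1.76 (0.48, SE 0.19, adjusted p = 0.784) and PSMC2 7.06 ± 1.32 and 4.57 ± 0.0156 (0.52, SE 0.22, adjusted p = 0.784). On the lower side were PSMG3 (-0.20, adjusted p = 0.860), PSMD8 (-0.08, adjusted p = 0.950) and PSMA4 (-0.04, adjusted p = 0.973), all with overlapping libraries. By limma 0 of 31 members passed (0% of all genes tested did) and 3 had an unadjusted p under 0.05, PSMD1, PSMD11 and PSMC2, all higher, where 4.39% of all genes tested were higher and 1.58% lower. Without overlap, 11 of the 26 subunit genes were higher and 0 lower in YH, where 21.9% of all genes tested were higher and 14.4% lower without overlap. The median was 0.18 for the core genes and 0.15 for the regulatory genes, against 0.03 for all genes tested, and 9 of 11 and 13 of 15 were above 0, against 54%. Without YL2, the library with the kidney genes, the core median was 0.04 and the regulatory median 0.13, and PSMD1 was at 0.79. Without YL1 the medians were 0.32 and 0.28 and PSMG3 was at -0.04. No member had an unadjusted p under 0.05 without YL2, YH1, YH2, TL1 or TL2, nor with median-ratio scaling, equal FPKM sums or the scaled reads.

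**Figure D4:**
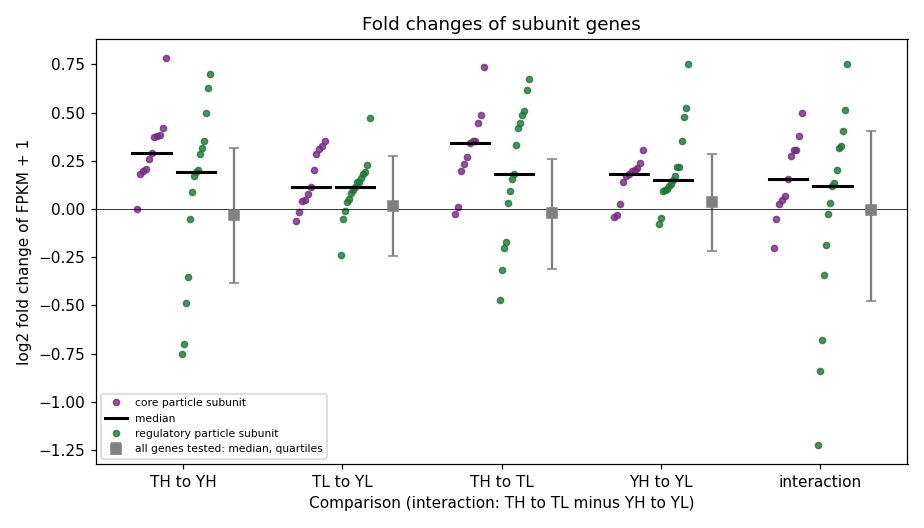
Log2 fold change of FPKM + 1 (vertical axis) of each core gene (purple) and regulatory gene (green) in the 4 comparisons and in the interaction, with black lines at the medians and grey squares with bars for the median and quartiles of all genes tested. The medians of both particles lie above 0 in all 5, between 0.11 and 0.34, though not with equal FPKM sums other than in YH to YL, and PSMD1, PSMC2 and PSMD11 are the lowest green points of the interaction, down to -1.22.

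The interaction, the difference between TH and TL minus that between YH and YL, asks whether altitude went with another change in one breed than in the other. PSMD1 had the largest value among the members, -1.22 (SE 0.42, limma adjusted p = 0.388), being lower in TH than in TL and higher in YH than in YL. PSMC2 was at -0.84 (SE 0.31, limma adjusted p = 0.407) and PSMD11 at -0.68 (SE 0.27, adjusted p = 0.442). On the other side were PSMD8 (0.75, SE 0.35, limma adjusted p = 0.488), PSMD14 (0.51, SE 0.36, adjusted p = 0.605) and PSMG1 (0.48, SE 0.40, adjusted p = 0.653). By limma 0 of 31 members passed, against 0.0336% of all genes tested, and the 3 on the lower side had an unadjusted p under 0.05, where 7.16% of all genes tested were lower and 3.78% higher. This count was 0 without TL1, TL2 or YH2 and 1 without TH1 or YH1, and without TH2 there were 3 higher beside the 3 lower. Without TH1, PSMD1 was at -0.79, PSMC2 at -0.69, PSMD14 at 0.33 and PSMG1 at 0.26, and without YL1 PSMD14 was at 0.25 and PSMG1 at 0.24. The median was 0.16 for the core genes and 0.12 for the regulatory genes, with 9 of 11 and 9 of 15 above 0, against 49.5% of all genes tested, and without TH1 both turned negative, -0.10 and -0.13. Without YL1 they were -0.0014 and -0.0094, and with equal FPKM sums -0.48 and -0.47, with 0 of 11 and 1 of 15 above 0, where that of all genes tested was -0.26.

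How large a difference these data could hold follows from the errors. The standard error of a subunit's fold change in the 4 comparisons had a median of 0.24 (0.18 to 0.36), and the 95% interval reached 0.58 to either side (median, log2 scale). The whole interval lay between -1 and 1 for 17 of 26 subunit genes in TH to YH, 16 in TH to TL, 23 in TL to YL and 23 in YH to YL. For the rest a difference over 1 was not excluded by the interval. With 2 libraries against 2, 1 library carries much of a median, as the plot of the medians with TH1 and YL2 left out shows.

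**Figure D5:**
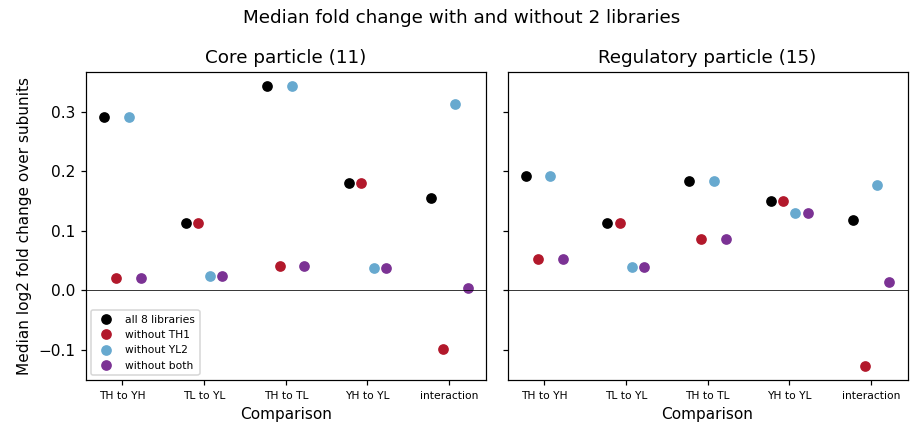
Median log2 fold change (vertical axis) of the 11 core genes (left) and the 15 regulatory genes (right) in each comparison with all 8 libraries (black), without TH1 (red), without YL2 (blue) and without both (purple). Without TH1 the core median goes from 0.29 to 0.02 in TH to YH and from 0.34 to 0.04 in TH to TL, and without YL2 that of YH to YL goes from 0.18 to 0.04.

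The genes left out by the rule serve the form of the proteasome that makes peptides for antigen presentation. PSMB8, an inducible beta subunit, had 12.02 and 6.15 FPKM in the TH pools, 9.59 and 9.61 in the TL pools, 12.8 and 9.91 in the YH pools and 12.5 and 5.48 in the YL pools, far below the beta subunits above, and a second row of that symbol had at most 0.422 FPKM. PSMB9, listed under its older name LMP2, had 0.254 to 1.02 FPKM. PSME1 and PSME2 form a cap induced by interferon. PSME1, which the table lists under another name and which was found by its gene ID, had 74.2 FPKM in YL2 and 118 in TH1 as its extremes, and PSME2 25.6 FPKM in YL2 and 52.7 in TH1. PSMB8, PSME1 and PSME2 were thus lowest in YL2 too, and PSME1 and PSME2 highest in TH1. PSMB10 was not analysed here.

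Beyond the proteasome itself, 41 rows of a list of ubiquitin, shuttle, receptor, ligase and regulator genes were tested, and 0 passed by limma in any comparison or in the interaction, where 0 to 0.0504% of all genes tested did. At an unadjusted p under 0.05 there were 4 of 41 lower in TH to YH (8.47% of all genes tested), 1 higher in TL to YL (5.9%), 0 in TH to TL (5.81% higher and 5.53% lower), 1 higher in YH to YL (4.39%) and 3 lower in the interaction (7.16%). The median of the list lay between -0.07 and 0.10. TRIM55, a ubiquitin ligase of the muscle sarcomere, had 50.2 and 47.4 FPKM in the TH pools, 63.3 and 63.7 in the TL pools, 46.2 and 37.7 in the YH pools and 32.4 and 22.4 in the YL pools, with log2 fold changes of 1.21 in TL to YL (SE 0.24, limma adjusted p = 0.243) and 0.61 in YH to YL (adjusted p = 0.784) and an interaction of -0.99 (adjusted p = 0.395). Its TL libraries were the highest and its YL libraries the lowest, and without YL2 the value of YH to YL was 0.36.

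Several other genes of this list with the smallest p had their lowest value in TH1, where 26.7% of all genes tested had theirs. USP14, a deubiquitinase bound to the cap, has 2 rows. The row with the smaller p had 0.989 FPKM in TH1, 3.22 in TH2, 4.17 in YH1 and 5.70 in YH2 (-1.02 in TH to YH, limma adjusted p = 0.256, and 0.78 in YH to YL, adjusted p = 0.784), and the other, at 13.2 to 18.4 FPKM, was highest in TH1. UBE3C, a ligase bound to the proteasome, also has 2 rows, and the one with the smaller p had 3.10 FPKM in TH1, 7.36 in TH2, 9.94 in YH1 and 9.97 in YH2 (-0.90 in TH to YH, limma adjusted p = 0.272, and -0.69 in TH to TL, adjusted p = 0.493). Of ZFAND5, an activator of the proteasome with 2 rows, one had 12.3 FPKM in TH1, 27.8 in TH2, 15.1 in YL2 and 33.1 to 52.7 in the other 5 (-1.02 in TH to TL, limma adjusted p = 0.507, and -1.95 in the interaction, adjusted p = 0.415). The second row of ZFAND5 was lowest in YL2, at 14.2 FPKM, and had 34.1 FPKM in TH1. Without TH1, USP14 was at -0.48 and UBE3C at -0.39 in TH to YH, and UBE3C at -0.18 and ZFAND5 at -0.46 in TH to TL. Where a symbol has 2 rows, the split of its reads between them is uncertain.

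DDI2, the protease that activates NFE2L1, had 0.424 and 0.901 FPKM in the TL pools and 1.14 and 4.49 in the YL pools (-1.06 in TL to YL, limma adjusted p = 0.602, and -0.38 without YL2), PAAF1, an assembly factor, was at -0.40 in TL to YL (adjusted p = 0.683, and -0.20 without TL2), UBE2K, a ubiquitin-conjugating enzyme, at -0.29 in YH to YL (adjusted p = 0.784, and -0.17 without YL2), and AKIRIN2, which takes the proteasome into the nucleus, at 0.44 in the interaction (adjusted p = 0.558). NFE2L2, a transcription factor of the oxidative stress response, had 40.6 FPKM in YL2 and 18.5 to 22.0 in the other 7 libraries (-0.40 in YH to YL, limma adjusted p = 0.798, and 0.076 without YL2). NFE2L1 itself ranged from 38.7 FPKM in TH2 to 74.1 in YH2, and POMP, which helps to close the core particle, from 321 FPKM in YL2 to 530.5 in TH1.

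The CCT chaperonin, a ring of 8 subunits that folds actin and tubulin, was taken as another multi-subunit machine for comparison. Its genes had a median log2 fold change of 0.46 in TH to YH, 0.54 in TH to TL, 0.07 in TL to YL and 0.20 in YH to YL, where the medians of all genes tested were -0.03, -0.02, 0.02 and 0.03, and 0 of 8 passed by limma in each, where 0.0336%, 0.0504%, 0.00839% and 0% of all genes tested did. CCT5 had 106 and 100 FPKM in the TH pools, 54.5 and 51.5 in the TL pools, 46.7 and 65.8 in the YH pools and 52.0 and 48.0 in the YL pools, with log2 fold changes of 0.88 in TH to YH (SE 0.23, limma adjusted p = 0.176), 0.94 in TH to TL (adjusted p = 0.248) and 0.80 in the interaction (adjusted p = 0.452). CCT5 was at nearly the same level in both TH libraries. CCT8 was at 0.82 in TH to TL (limma adjusted p = 0.305), and TCP1 at 0.66 in TH to YH (adjusted p = 0.301, and 0.41 without YH1) and 0.37 in TL to YL (adjusted p = 0.742, and 0.17 without YL2). The median deviation of the CCT genes from their means was 0.53 in TH1, 0.30 in TH2 and -0.36 in YL2. The difference between the CCT genes and the proteasome genes was not tested.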

How the data were processed

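The members, the gene lists and the tests were chosen with earlier results of these data known. Per the labels and the study's methods, the authors used TopHat2 2.0.9 for alignment to Sscrofa10.2 and Cufflinks for FPKM, and fold changes here use these deposited FPKM. The table they deposited also holds a read count scaled by 1 factor per library (a signal, not whole counts). Of its low values, 99.8% became whole within 0.1 after division by the most frequent value of the library. This scaled count was used for depth, reads of single genes and 1 alternative. Another 8 columns of group values and ratios were not used. Groups follow the titles and breeds.

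limma 3.58.1 in R 4.3.3 was fitted with a trend to log2(FPKM + 1), 1 term per group, all 8 libraries (4 residual degrees of freedom, prior 2.83), over genes at 1 FPKM or more in 2 libraries or more, p-values being adjusted over the 11913 genes tested. Nothing in the labels says that the libraries are more than separate pools. Members named individually were those with an active site, the 4 highest in each particle, all regulators and chaperones, and the 3 smallest p in each direction of each comparison, and of the pathway genes the 2 smallest. Symbols came from the table for 14256 genes and by gene ID for 1025. The fit was tested on simulated data. Alternatives were a pseudocount of 0.1, no filter, a mean of 10 FPKM, other scalings, no trend, a replicate block, only the 4 libraries compared, other thresholds and each library left out, and, chosen after seeing the data, the scaled reads and both TH1 and YL2 left out. Values were summarised in Python 3.11.15 with numpy 2.4.6 and pandas 2.3.3, and plotted with matplotlib 3.10.9.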

Additional observations from a re-analysis of the deposited data

Results flagged for a closer look

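For 4 regulatory genes the libraries of 2 groups did not overlap in one comparison and did not overlap in the opposite direction in its counterpart in the other breed or at the other altitude, and the difference between the comparisons was tested by the interaction of limma. PSMD1, lower in TH than in YH and higher in TL than in YL, had an interaction of -1.22 (adjusted p = 0.388). PSMC2, lower in TH than in YH and in TL and higher in TL and in YH than in YL, had -0.84 (adjusted p = 0.407). PSMD11 had the same directions as PSMC2 and -0.68 (adjusted p = 0.442). PSMD6, higher in TH than in YH and lower in TL than in YL, had 0.32 (adjusted p = 0.656). These are 4 of 31 members with opposite directions between the breed comparisons, where 9.90% of all genes tested had them, and 2 of 31 (PSMC2 and PSMD11) between the altitude comparisons, where 11.3% did. None of the 4 passed the threshold, and 1 value of the interaction serves both ways of pairing the comparisons.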

How the results depend on the processing

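No member was called under any alternative run. Without a fold threshold, PSMD1 in TH to YH without TH2 (limma adjusted p = 0.046) and PSME4 in YH to YL without YL1 (adjusted p = 0.035) were under 0.05. In these fits 29.2% and 25.3% of all genes tested had an unadjusted p under 0.05, and in the latter, where YL2 stands alone, 305 genes were called. With 1 library left in a group, that library is assumed to vary like the other groups. The medians of the 2 particles depend on single libraries. Leaving out 1 library at a time, the core median ranged from 0.021 (without TH1) to 0.52 (without TH2) in TH to YH, from 0.041 to 0.49 in TH to TL and from -0.099 to 0.41 in the interaction, from 0.024 (without YL2) to 0.30 (without YL1) in TL to YL and from 0.038 to 0.32 in YH to YL, and the regulatory median from 0.053 to 0.35, from 0.087 to 0.40 and from -0.13 to 0.27 in TH to YH, TH to TL and the interaction, from 0.039 to 0.18 in TL to YL and from 0.13 (without YL2) to 0.28 (without YL1) in YH to YL. Among small values, PSMG1 ranged from -0.33 to 0.16 and PSMA4 from -0.20 to 0.076 in TL to YL, and PSMD8 from -0.22 to 0.072 and PSMA4 from -0.13 to 0.047 in YH to YL. With both TH1 and YL2 left out, the core and regulatory medians were 0.021 and 0.053 in TH to YH and 0.041 and 0.087 in TH to TL, the regulatory median of the interaction was 0.015, and PSMA4 was at 0.024 in TL to YL and 0.047 in YH to YL.

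Scaling each library to 1 FPKM sum moved the median of all genes tested to -0.50 in TH to YH, -0.23 in TL to YL, -0.27 in TH to TL, 0.01 in YH to YL and -0.26 in the interaction. The core and regulatory medians were then -0.64 and -0.72 in TH to YH, -0.21 and -0.20 in TL to YL, -0.28 and -0.40 in TH to TL and -0.48 and -0.47 in the interaction. Genes turned sign with it, to -0.25 for PSMD8, -0.39 for PSME3 and -0.29 for PSMD14 in TH to YH, -0.0095 for PSMA5 and -0.024 for PSMA7 in TL to YL, -0.13 for PSMA2 in TH to TL and -0.095 for PSMD14 and -0.13 for PSMG1 in the interaction. Median-ratio scaling moved the median of all genes tested to -0.13 in TH to YH, -0.10 in TH to TL, -0.06 in TL to YL, -0.02 in YH to YL and -0.03 in the interaction and gave core and regulatory medians of 0.16 and 0.065 in TH to YH, 0.23 and 0.076 in TH to TL, 0.028 and 0.031 in TL to YL (6 of 11 and 9 of 15 above 0), 0.12 and 0.087 in YH to YL and 0.11 and 0.076 in the interaction. Relative to all genes the core medians were 0.084 to 0.34, against 0.098 to 0.36 without this scaling. The scaled reads gave 0.42 and 0.28 in TH to YH, 0.067 and 0.10 in TL to YL, 0.040 and 0.13 in YH to YL (6 of 11 and 10 of 15 above 0) and 0.31 and 0.26 in the interaction. Beyond those named, the cause of these shifts was not tested. A pseudocount of 0.1, no filter, a mean of 10 FPKM, no trend and only the 4 libraries compared turned no sign of a named member or of a particle's median and moved no such median beyond its spread. The median of all genes tested turned to 0.08 in TH to YH, 0.05 in TH to TL and 0.05 in the interaction at a mean of 10 FPKM, which tests fewer genes, and to -0.0083 in TL to YL and 0.022 in the interaction with no filter.

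With a replicate block the core median of TH to YH was 0.29 and 0 members were called. Members with an unadjusted p under 0.05 went from 3 higher and 3 lower to 2 higher and 2 lower in TH to YH. They went from 3 to 1 in YH to YL and from 3 to 2 in the interaction. The correlation of deviations between libraries with the same number was -0.08 to 0.12. The labels link these libraries by number only, and a low correlation cannot show that no step of handling was shared. The planned tests on whole counts were not run because the deposited reads are scaled. Among the members tested, PSMG3, PSMG4 and PSMC2 rest on the fewest reads.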
